A study of Mus musculus with 2 samples.

Results

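The genes described here are 8 chemokines of myeloid cells, *Ccl24*, *Ccl8*, *Ccl2*, *Ccl7*, *Ccl12*, *Ccl6*, *Ccl9* and *Cxcl2*, out of 32285 genes counted. They were selected because *Ccl24* counts were higher in T cell gates of PEP-619WW mice, so the level of *Ccl24* in such gates chose the set and is given as a description. The cells were, per the design text, splenic CD45+ cells sorted 8 dpi with the clone 13 strain of LCMV, an arenavirus that sets up a long infection, and all animals received it. PEP-WT mice were wild-type C57BL/6 animals, and PEP-619WW mice carried on both alleles a CRISPR/Cas9 exchange of nucleotides in *Ptpn22* that places a tryptophan where the phosphatase PEP has an arginine, in every cell of the body. Adult mice matched for age and sex were used, and each genotype was a pool of cells from 4 to 5 mice, so that no value belongs to 1 animal. Expression was measured with the 10x Genomics 3' assay, in which each captured molecule is counted once as a unique molecular identifier (UMI) with the barcode of its droplet.

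Each genotype had 2 sets of counts, called run 1 and run 2. Run 2, with 9539 PEP-WT and 11029 PEP-619WW barcodes, has the cell numbers given in the methods of the study, and what run 1 is to it the sources do not state. The 4 libraries held 8576 to 14821 barcodes with a median of 2832 to 4837 UMIs each, and pairs of libraries shared 19 to 49 barcode sequences. Both runs were kept apart throughout and were not taken as replicates. With 1 library per genotype and run no replicate error could be estimated and no test was run, and each interval below is a 95% interval for counting error only. The sample labels name liver, Jurkat (a human T cell line) and tumor-infiltrating cells, whereas the design text and the study's methods name spleen. Lymphocytes, which make up much of a spleen, were many in run 1, with 6517 (PEP-WT) and 2904 (PEP-619WW) B cell gate barcodes. In run 2 the PEP-WT library held 10 barcodes in the T cell gate and 0 in the B cell gate, against 771 and 486 for PEP-619WW. That PEP-WT library also held 249 barcodes with at least 3 of 5 melanocyte genes, the PEP-619WW library held 25, and both libraries of run 1 held 0. Genotype and the makeup of the library cannot be told apart in run 2.

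Chemokines are small secreted proteins that direct the movement of leukocytes through receptors on the responding cell. *Ccl24* encodes eotaxin-2, which acts on eosinophils through CCR3 and is made by macrophages, above all after type 2 cytokines. *Ccl2*, *Ccl7* and *Ccl12* encode ligands of CCR2, the receptor that brings monocytes out of the bone marrow and into infected tissue, and *Ccl8* in mice encodes a ligand of CCR8. *Ccl6* and *Ccl9* encode ligands of CCR1 that myeloid cells make without strong stimulation, and *Cxcl2* encodes a ligand of CXCR2 that draws in neutrophils. Levels are in CPM, the UMIs of a gene per 1000000 UMIs of its gate. Gates were set on marker UMIs of a barcode: *Lyz2* of at least 5 for monocytes or macrophages (the Lyz2 gate), *C1qa* and *C1qb* together of at least 5 for macrophages (the C1q gate), *S100a8* and *S100a9* together of at least 20 for neutrophils, and *Cd3e* above 0 with *Lyz2* at 0 for T cells. Barcodes may lie in several gates, and gene sums were taken over whole gates.

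In run 1 there were 598 PEP-WT against 494 PEP-619WW barcodes of the C1q gate, and in run 2 there were 5839 against 1968. The 6 macrophage genes of a fixed list summed to 2864 and 3143 CPM there in run 1, and to 8485 and 6162 CPM in run 2. In run 1 this gate also held much RNA of other cell types. There the 3 plasma cell genes summed to 6440 and 6208 CPM and the 5 neutrophil genes to 3358 and 3020 CPM. Of the 4 genes listed for resident macrophages of the liver, *Clec4f*, which defines them, had no UMI in any C1q gate. The others are shared with macrophages elsewhere: *Marco*, a scavenger receptor, had 190 and 20 UMIs in run 1 and 302 and 0 in run 2, *Timd4*, a receptor for dying cells, 31 and 1, then 16 and 2, and *Vsig4*, a complement receptor, 9 and 0, then 91 and 0, in PEP-WT and PEP-619WW. The gates differ in total UMIs, and per UMI *Marco* went from 20.9 CPM in PEP-WT to 2.45 CPM in PEP-619WW in run 1, and *Timd4* from 3.41 to 0.12 CPM. *Timd4* in run 2 had an interval of the log2 ratio from -4.29 to 0.97. The part of these differences in the chemokine ratios was not tested. In run 1, 54.7% and 54.0% of these barcodes also carried a UMI of *Cd3e*, *Cd79a* or *Ms4a1*, which mark T and B cells, and their part in the results was not tested except where values without them are given. In run 2 those shares were 0.462% and 8.18%.

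In run 1, *Ccl24* was highest in the C1q gate, where it measured 29.9 CPM (26.4 to 33.7) in PEP-WT and 69.7 CPM (64.1 to 75.6) in PEP-619WW. In the Lyz2 gate the level was 12.6 CPM (10.9 to 14.5) in PEP-WT and 39.9 CPM (36.5 to 43.4) in PEP-619WW. In the neutrophil gate it was 9.97 CPM (7.51 to 12.98) and 31.4 CPM (26.9 to 36.5). There 117 of the 172 PEP-619WW UMIs lay in 1 barcode. The PEP-619WW level was the higher of the pair in all 3 myeloid gates, by 2.33-fold (2.01 to 2.70) in the C1q gate. The intervals of the genotypes did not overlap there. These gates share barcodes with each other and with T cell gates that let in *Lyz2*. Their ratios are thus not separate results, nor separate from the choice of the set. The PEP-619WW barcode with 117 *Ccl24* UMIs, described below, met the limits of all 3 myeloid gates and also held *Cd3e*. The order of the myeloid gates was the same for both genotypes, but the Lyz2 and neutrophil gates of PEP-WT did not differ beyond their intervals. The T cell and B cell gates stood at 1.65 and 1.72 CPM in PEP-WT and at 1.22 and 3.02 CPM in PEP-619WW.

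The run 1 difference did not lie in the share of barcodes with *Ccl24*, and it rested on a few barcodes rich in *Ccl24*. In the C1q gate, 15.4% of PEP-WT barcodes (12.6 to 18.5) and 14.8% of PEP-619WW barcodes (11.8 to 18.2) had a *Ccl24* UMI, and after thinning each barcode to 1000 UMIs the shares were 3.94% and 3.27%. Of the 272 PEP-WT UMIs of *Ccl24*, 13 barcodes held 50%, whereas 3 barcodes held 50% of the 569 PEP-619WW UMIs. The richest PEP-619WW barcodes carried 128, 117 and 54 *Ccl24* UMIs and had 39279, 60943 and 40542 UMIs in total, while the richest PEP-WT barcode carried 21. All of these barcodes also held at least 49 UMIs of *C1qa*, a complement gene of macrophages. Without the 3 richest barcodes of each library the log2 ratio in the C1q gate was 0.49 in place of 1.22. Without barcodes over 20000 UMIs it was -0.48, and with equal weight for each barcode it was -0.091, so the direction in run 1 turned under these choices but not without the 3 richest barcodes. Without barcodes that carried *Cd3e*, *Cd79a* or *Ms4a1* the log2 ratio was 0.41, and over the barcodes in none of the other gates it was -0.082. In the Lyz2 gate the log2 ratio of 1.66 became 0.93 and -0.56 without the 3 richest barcodes and without those over 20000 UMIs, and in the neutrophil gate the log2 ratio of 1.66 became -0.030 and -1.65. Erythroid genes moved with genotype in the C1q gate of run 1, where 4 of them summed to 1469 CPM in PEP-WT and 251.1 CPM in PEP-619WW, and their part in the *Ccl24* ratio was not tested.

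**Figure D1:**
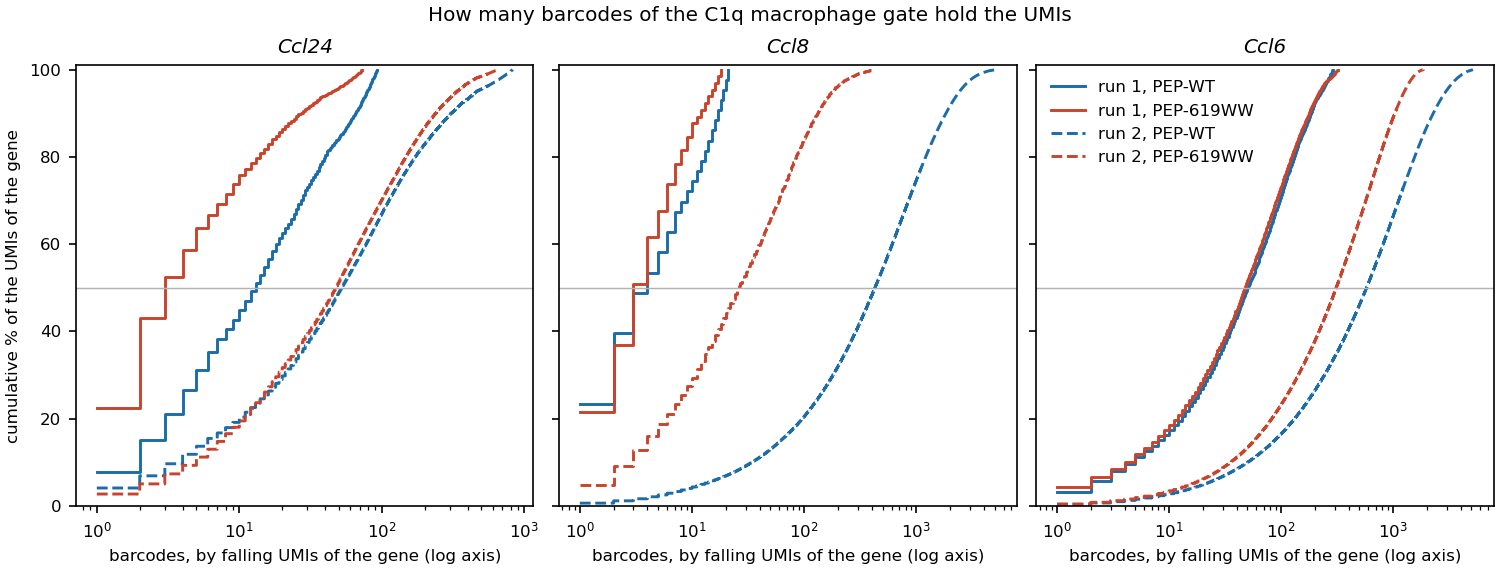
Cumulative percent of the UMIs of *Ccl24*, *Ccl8* and *Ccl6* in the C1q gate (vertical axis) against barcodes in order of falling UMIs of that gene (horizontal log axis), with 1 line per library. For *Ccl24* in run 1 the PEP-619WW line passes 50% at 3 barcodes and the PEP-WT line at 13, whereas for *Ccl6* the genotypes run together, at 48 and 51 barcodes.

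In run 2, *Ccl24* in the C1q gate measured 127 CPM (124 to 129) in PEP-WT and 613 CPM (601 to 625) in PEP-619WW, a ratio of 4.84 (4.69 to 4.99). Here the share of barcodes differed as well, with 14.2% (13.3 to 15.1) in PEP-WT and 32.9% (30.9 to 35.1) in PEP-619WW. At 1000 UMIs per barcode the shares were 5.77% and 17.0%. In the Lyz2 gate the level was 155 CPM against 586 CPM, and in the neutrophil gate 267 CPM against 296 CPM. Over barcodes in none of the other gates, the log2 ratios of 1.92, 2.27 and 0.15 in the Lyz2, C1q and neutrophil gates were 0.80, 5.69 and 1.90, so the Lyz2 gate difference was then under 2-fold. For the C1q gate this choice leaves out the 89.1% (PEP-WT) and 88.6% (PEP-619WW) of barcodes that were also in the Lyz2 gate. The 5.69 thus rests on a small part of that gate, and its interval is not given here. The richest barcode of the PEP-WT neutrophil gate carried 303 of its 557 *Ccl24* UMIs, and without the richest barcode of each library the log2 ratio there was 0.96 in place of 0.15. The UMIs were spread over more barcodes than in run 1, with 52 PEP-WT and 48 PEP-619WW barcodes holding 50% of those of the C1q gate, and the log2 ratio of 2.27 was 2.31 without the 3 richest. Thus the summed level in the C1q gate was higher in PEP-619WW in both runs, and the share of *Ccl24*-positive barcodes was higher in run 2 but not in run 1.

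Myeloid gates held 79.7% of all *Ccl24* UMIs of PEP-WT and 88.7% of those of PEP-619WW in run 1, and 94.5% and 85.0% in run 2. Of the UMIs of all genes, the Lyz2 gate alone held 62055973 of 70500076 in PEP-WT and 34260726 of 55504449 in PEP-619WW of run 2. In run 1 it held 15589940 of 77916082 and 13194389 of 56745578. The *Ccl24* shares are to be read beside these, but they are for all myeloid gates together, of which the Lyz2 gate is only a part. The share of all UMIs in the myeloid gates together was thus higher than in the Lyz2 gate, and it is not given here. Outside every class of barcode set here, the PEP-619WW library of run 2 had 66 barcodes with at least 10 *Ccl24* UMIs, which together carried 12.6% of its *Ccl24* UMIs. Of these, 56 had a UMI of *Mrc1*, the macrophage mannose receptor, and 49 had a *Lyz2* UMI. The PEP-WT library of run 2 had 13 such barcodes and both libraries of run 1 had 0.

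The T cell gate of run 1 did not show the higher *Ccl24* of PEP-619WW. With *Lyz2* at 0 there were 18 *Ccl24* UMIs in 12 of 1774 PEP-WT barcodes and 11 UMIs in 6 of 1013 PEP-619WW barcodes, a log2 ratio of -0.43 (-1.66 to 0.73). Only when barcodes with *Lyz2* were let in did the order turn, to 109 UMIs in PEP-WT and 215 in PEP-619WW for all barcodes with *Cd3e*. A gate for CD4 T cells (*Cd3e* and *Cd4* above 0, *Mt2* under 10) held 14 UMIs in 8 of 361 PEP-WT barcodes and 118 UMIs in 2 of 257 PEP-619WW barcodes. Of the 118 UMIs, 117 came from 1 barcode, which also held 76 UMIs of *C1qa*, 98 of *C1qb*, 15 of *Lyz2*, 70 of *S100a9*, 15 of *Cd3e* and 1 of *Cd4*. The same barcode supplied 117 of the 212 UMIs in the gate for CD8 T cells, where PEP-WT had 96.

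**Figure D2:**
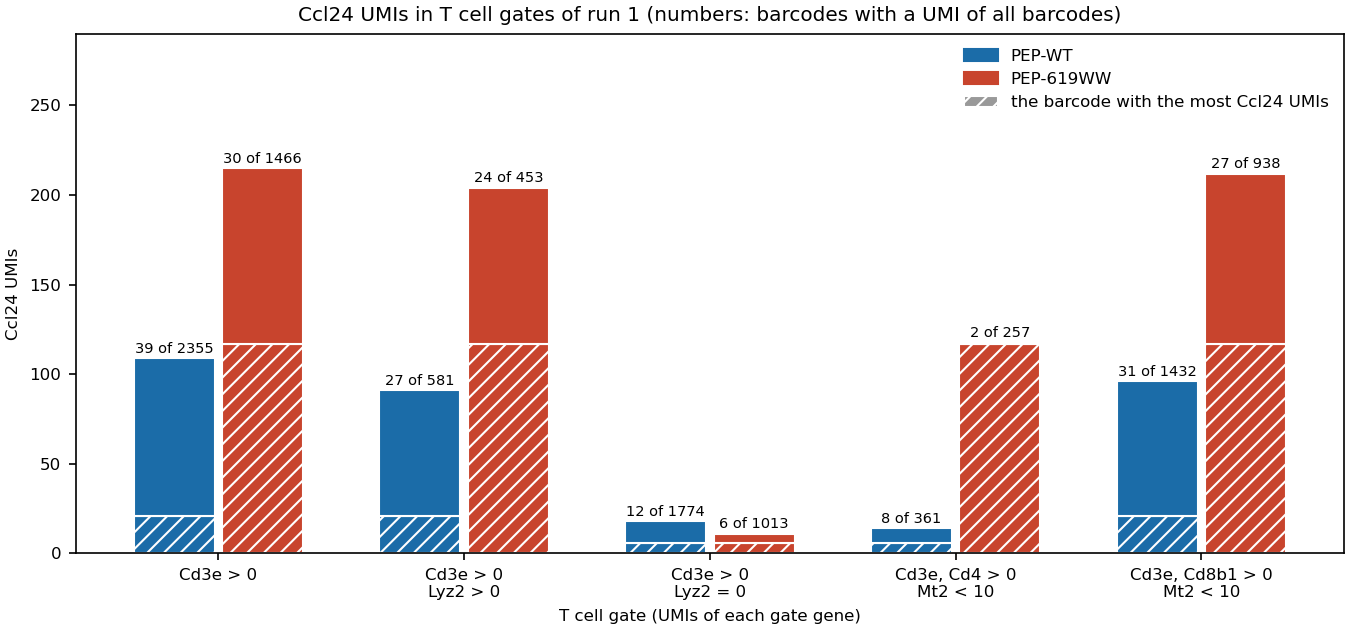
*Ccl24* UMIs (vertical axis) in 5 gates for T cells of run 1, with the UMIs of the richest barcode hatched and the number of *Ccl24*-positive barcodes of all barcodes printed above each bar. PEP-619WW is the higher bar in each gate that lets in *Lyz2*, with 117 UMIs from 1 barcode, and the lower bar, at 11 against 18 UMIs, where *Lyz2* is 0.

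In run 1, *Ccl24* in barcodes with *Cd3e* went with complement genes. There, barcodes with a UMI of *C1qa* or *C1qb* carried 89.0% (PEP-WT) and 96.7% (PEP-619WW) of the *Ccl24* UMIs of *Cd3e* barcodes, although they were 449 of 2355 and 327 of 1466 barcodes. Among *Cd3e* barcodes with neither complement gene, 0.630% and 0.615% had a *Ccl24* UMI. Their median totals were 4221 and 6348 UMIs, against 10755 and 13332 for those with a complement UMI. The part of this depth was not tested. B cells, which are not known to make *Ccl24*, had a *Ccl24* UMI in 0.384% (0.248 to 0.566) of PEP-WT and 0.826% (0.530 to 1.23) of PEP-619WW barcodes. The T cell gate, at 0.676% (0.350 to 1.18) and 0.592% (0.218 to 1.28), had a share above that of the B cell gate in PEP-WT, with overlapping intervals, and below it in PEP-619WW. Median depths were 4225.5 and 6471 UMIs in the T cell gate and 2546 and 3276.5 UMIs in the B cell gate, and the part of depth or of free RNA in these shares was not tested. In run 2 the PEP-619WW T cell gate had a *Ccl24* UMI in 1.69% of barcodes and the B cell gate in 2.06%. *Cd3e* barcodes with neither complement gene held 44.1% of the *Ccl24* UMIs of *Cd3e* barcodes in that library, against 3.26% in run 1. The 10 barcodes of the PEP-WT T cell gate allowed no ratio.

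The mix of chemokines in the T cell gate of run 1 had *Ccl6* first, as did those of the C1q, Lyz2, neutrophil and B cell gates. In the B cell gate *Ccl6* made up 35.1% in PEP-WT and 44.4% in PEP-619WW, so this order was not particular to the C1q gate. Of the 131 chemokine UMIs of the PEP-WT T cell gate, 35.9% (27.7 to 44.7) were *Ccl6*, 24.4% (17.3 to 32.7) *Cxcl2* and 13.7% (8.35 to 20.8) *Ccl24*. In the PEP-WT C1q gate those shares of 2675 UMIs were 44.9%, 17.0% and 10.2%. In PEP-619WW the T cell gate held 151 such UMIs, of which 43.0% were *Ccl6* and 23.8% *Ccl2*. There *Ccl2* was 3.36-fold (1.74 to 6.91) above PEP-WT, but 30 of its 36 UMIs were in 1 barcode.

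**Figure D3:**
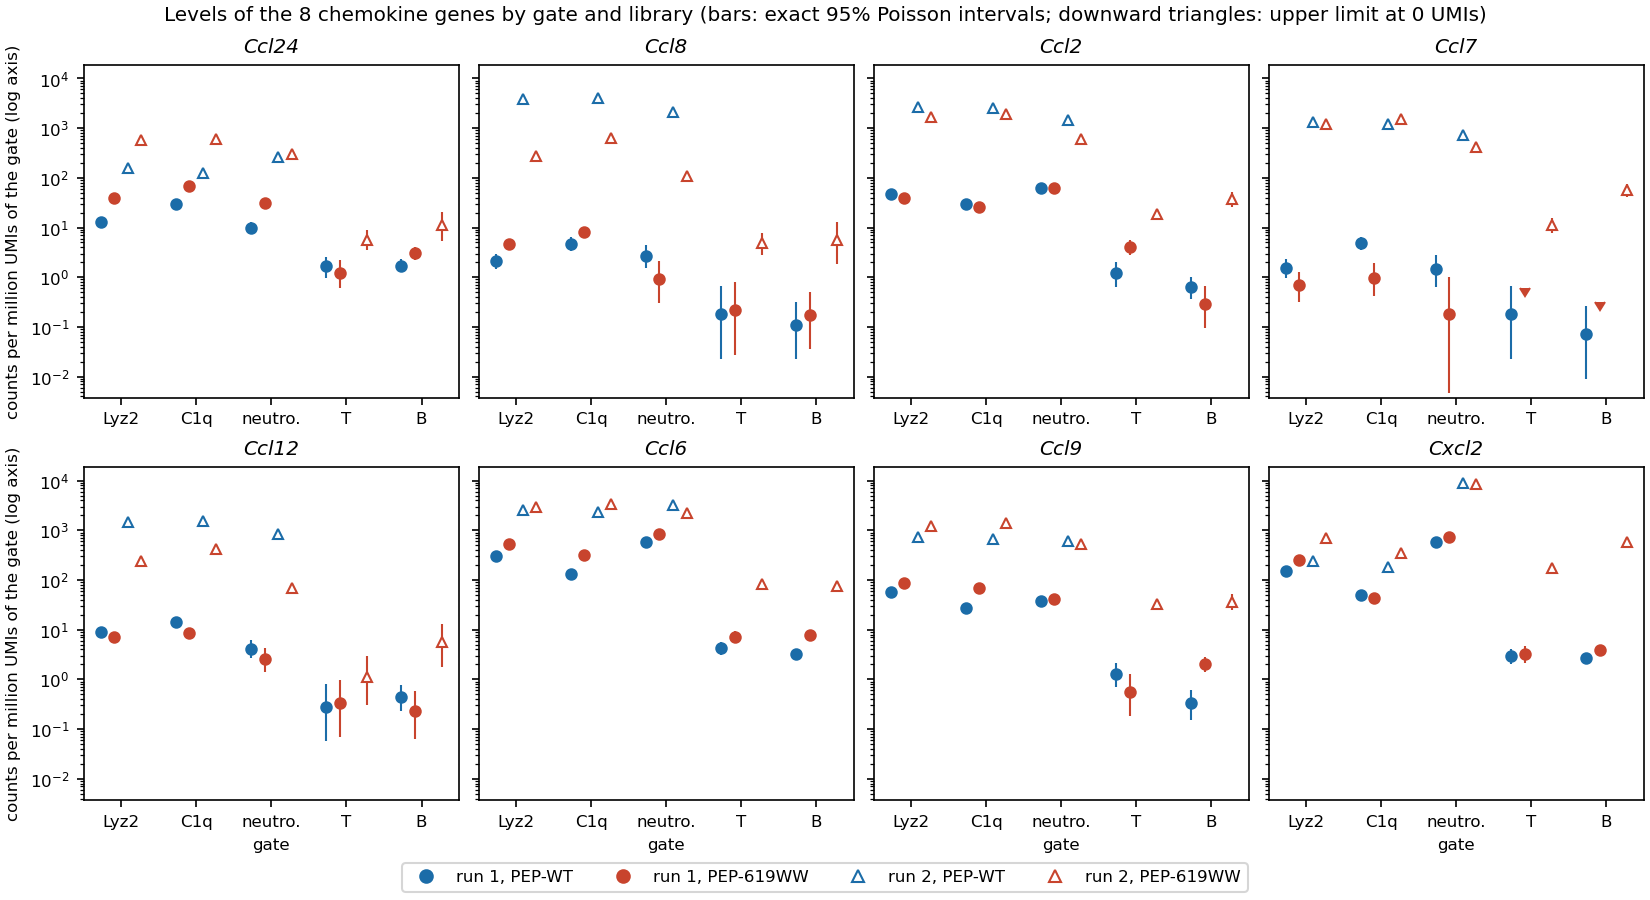
Level of each chemokine in CPM (vertical log axis) in 5 gates (horizontal axis) for each library with at least 50 barcodes in the gate, with exact Poisson intervals. In run 1 the T and B cell gates lie below the myeloid gates for every gene but *Ccl7*. For *Ccl7* the PEP-619WW neutrophil gate, with 1 UMI, and the PEP-WT T cell gate are both at 0.18 CPM. The open symbols of run 2 lie above the filled symbols of run 1 in most gates.

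Among all genes with at least 20 UMIs, the share that was 2-fold or more higher in PEP-619WW in run 1 was 1.85% in the Lyz2 gate, 1.96% in the C1q gate, 1.85% in the neutrophil gate and 1.99% in the T cell gate. The share 2-fold or more lower was 2.59%, 2.62%, 3.7% and 2.27% in the same order. In run 2 the shares were far larger, with 14%, 10.5% and 11.6% of genes higher and 10.4%, 8.88% and 6.74% lower in the Lyz2, C1q and neutrophil gates. Against these, 3 of the 8 chemokines were higher in the C1q gate of run 1 (*Ccl24*, *Ccl6* and *Ccl9*) and 1 was lower (*Ccl7*). For run 2, 2 were higher (*Ccl24* and *Ccl9*) and 2 lower (*Ccl8* and *Ccl12*) in that gate. The set was chosen on *Ccl24*, so its own count supports nothing. The median log2 ratio of the 8 genes in the C1q gate was 0.26 in run 1 and 0.42 in run 2, where all genes had medians of -0.02 and 0.11. These medians include *Ccl24* and so support nothing either. With *Ccl24* left out, the middle ratio of the other 7 was that of *Cxcl2* in run 1, at -0.22. In run 2 it was that of *Ccl7*, at 0.32. In the Lyz2 gate 2 of 8 were 2-fold or more higher and 1 lower in run 1, and 2 higher and 2 lower in run 2. In the neutrophil gate 1 of 7 was higher and 1 lower in run 1, and 0 of 8 higher and 3 lower in run 2, while in the T cell gate of run 1 *Ccl2* was the 1 of 4 that was higher. The median of all genes was itself off 0 in some gates, at 0.11 in the Lyz2 gate and 0.21 in the neutrophil gate of run 2 and at -0.11 in the neutrophil gate of run 1, and centred on it the *Ccl24* ratio of the neutrophil gate of run 2 was -0.062.

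**Figure D4:**
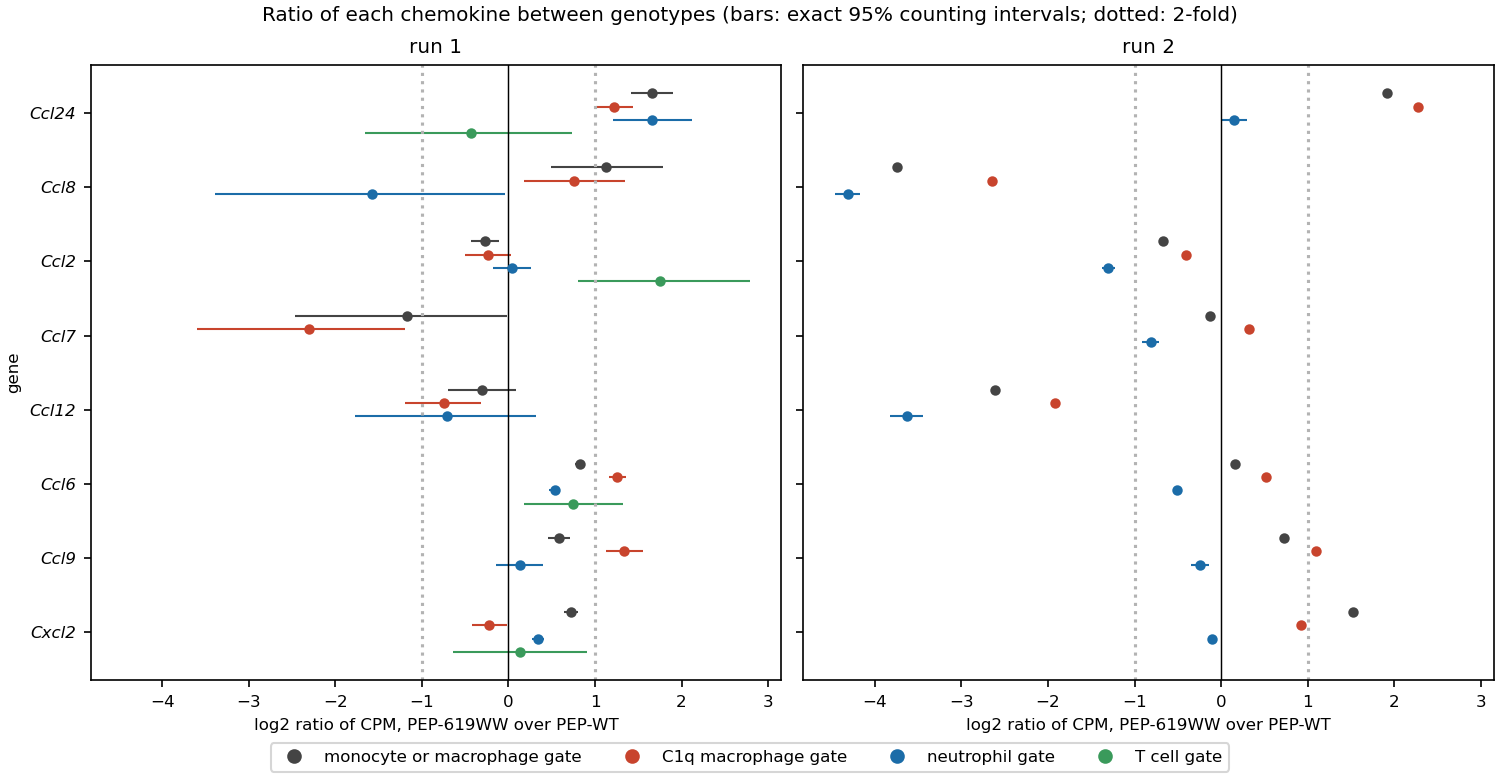
Log2 ratio of CPM between PEP-619WW and PEP-WT (horizontal axis) for each chemokine (vertical axis) in each gate, with exact counting intervals, for genes with at least 20 UMIs. *Ccl24* lies right of 0 in all myeloid gates of both runs (in the neutrophil gate of run 2 at 0.15, or -0.062 when centred on the median of all genes). The myeloid gates share barcodes. *Ccl8* lies at 0.75 in the C1q gate of run 1 and at -2.65 in that of run 2.

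Those of the 8 genes that encode CCR2 and CCR8 ligands lie near each other on the plus strand of chromosome 11 in GRCm38. Their order is *Ccl2* (chr11:82035571-82037453), *Ccl7* (chr11:82045712-82047525), *Ccl12* (chr11:82101845-82103400) and *Ccl8* (chr11:82115185-82116799). Other genes between them are not listed here. *Ccl24* lies elsewhere, on the minus strand at chr5:135569937-135573049. *Ccl9* and *Ccl6* form a second group on the minus strand of chromosome 11, at chr11:83572919-83578636 and chr11:83587882-83593087, and *Cxcl2* is at chr5:90903871-90905938. *Ccl2* and *Ccl6* each overlap an unrelated gene on the opposite strand. The RefSeq table of promoters held entries for 5 of the 8 genes. The 250 bases before the start of *Ccl8* and of *Ccl12* are shown because these genes had the largest falls in run 2, with matches to TATAAA in capitals. Those of *Cxcl2*, the gene with the highest level in the neutrophil gates of run 2, are also shown. There matches to a loose form of the NF-κB motif (GGG and CC with 5 bases between) are in capitals. The RefSeq start of *Cxcl2* lies downstream of the gene start given above, so its window ends inside that gene.
Ccl8 (GRCm38.p6, chr11:82114935-82115184, plus strand): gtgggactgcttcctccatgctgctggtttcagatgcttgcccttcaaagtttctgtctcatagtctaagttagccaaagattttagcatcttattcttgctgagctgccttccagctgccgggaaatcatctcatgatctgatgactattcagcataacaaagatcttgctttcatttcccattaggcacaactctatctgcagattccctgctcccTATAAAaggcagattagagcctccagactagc
Ccl12 (GRCm38.p6, chr11:82101595-82101844, plus strand): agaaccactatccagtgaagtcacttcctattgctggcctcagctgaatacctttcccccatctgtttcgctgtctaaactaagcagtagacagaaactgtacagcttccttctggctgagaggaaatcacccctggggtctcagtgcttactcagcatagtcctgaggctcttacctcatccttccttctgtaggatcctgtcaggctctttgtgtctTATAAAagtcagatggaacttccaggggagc
Cxcl2 (GRCm38.p6, chr5:90903649-90903898, plus strand): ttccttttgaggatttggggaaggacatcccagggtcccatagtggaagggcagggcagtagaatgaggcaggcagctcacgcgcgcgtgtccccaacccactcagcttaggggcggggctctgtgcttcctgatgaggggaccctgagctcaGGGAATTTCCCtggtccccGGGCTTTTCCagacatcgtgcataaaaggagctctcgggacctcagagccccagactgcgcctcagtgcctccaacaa
Both strands were searched. TATAAA lay 32 to 27 bases before the start in *Ccl8* and 31 to 26 bases before it in *Ccl12*, and 12.97% of the 27025 promoters of the table hold it. The NF-κB form matched 3 times in *Cxcl2*, of which 2 matches overlap, and 45.4% of promoters hold it. An interferon response form (GAAA and GAAA with 2 bases between) and the STAT forms (TTC and GAA with 3 or with 4 bases between) matched none of these windows and are in 3.04%, 7.18% and 5.86% of promoters.

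*Ccl8* had the largest ratio between genotypes of the 8 genes in each myeloid gate of run 2. Run 1 had 4.73 CPM (3.42 to 6.37) in PEP-WT and 7.96 CPM (6.14 to 10.1) in PEP-619WW in the C1q gate, with a UMI in 21 of 598 and 18 of 494 barcodes. These were 43 and 65 UMIs, of which 4 and 3 barcodes held 50%, and over barcodes in none of the other gates the log2 ratio of 0.75 was -1.03. Run 2 had 4051 CPM in PEP-WT and 645 CPM in PEP-619WW in that gate, which is 6.28-fold (6.16 to 6.41) lower. Over the barcodes in none of the other gates, which leaves out the 89.1% and 88.6% that were also in the Lyz2 gate, the log2 ratio of -2.65 was -0.18, while in the Lyz2 gate that choice gave -3.45 in place of -3.75. *Ccl8* was found in 87.2% (86.3 to 88.0) of the PEP-WT barcodes and in 20.1% (18.3 to 21.9) of the PEP-619WW barcodes of that gate, or 62.6% and 12.5% at 1000 UMIs. In the neutrophil gate of run 2 it stood at 2139 CPM in PEP-WT and 107 CPM in PEP-619WW. In the PEP-WT library of run 2, *Ccl8* also had a UMI in 65.4% of the 104 erythroid barcodes, cells that should lack it, at a median of 2224 UMIs and a level of 1341 CPM, and 10.6% of these barcodes were also in the C1q gate. The neutrophil gate had a like share of 64.1%, at a median of 1612.5 UMIs, and a higher level, so the order of the 2 gates differs by measure and the part of free RNA was not tested.

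*Ccl12* was, like *Ccl8*, lower in PEP-619WW in run 2. Its C1q gate level was 1570 CPM in PEP-WT and 416 CPM in PEP-619WW, a fall by 1.92 on the log2 scale (by 0.38 over barcodes in none of the other gates), with shares of 75.8% and 40.9% of barcodes. In run 1 it was at 14.2 CPM (11.8 to 16.9) in PEP-WT and 8.45 CPM (6.57 to 10.7) in PEP-619WW, so that *Ccl12* was lower in PEP-619WW in both runs. Across barcodes of the C1q gate of run 2, Pearson's r of the log-scaled counts of *Ccl8* and *Ccl12* was 0.39 over 5839 PEP-WT and 0.32 over 1968 PEP-619WW barcodes, which share library and depth. *Ccl12* had a higher r with *Ccl2*, at 0.49 and 0.52, and with *Ccl7*, at 0.45 and 0.55.

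*Ccl2* and *Ccl7* are both ligands of CCR2. *Ccl2* in the C1q gate measured 30.3 CPM (26.9 to 34.1) and 25.8 CPM (22.5 to 29.6) in run 1, intervals that overlap, and 2531 and 1906 CPM in run 2. Over barcodes in none of the other gates its log2 ratio there was -2.72 in run 1 and 0.51 in run 2, the latter with the sign turned. In the neutrophil gate of run 1 it was 61.8 CPM in PEP-WT and 63.7 CPM in PEP-619WW, with an interval of the log2 ratio from -0.18 to 0.26. *Ccl7* in the C1q gate was at 4.84 CPM in PEP-WT and 0.98 CPM in PEP-619WW in run 1, but 1 barcode carried 22 of the 44 PEP-WT UMIs. In run 2 *Ccl7* measured 1241 CPM in PEP-WT and 1546 CPM in PEP-619WW there, a log2 ratio of 0.32 that was 1.47 over barcodes in none of the other gates. Of the 28 pairs among the 8 genes, this one had the highest r in the C1q gates of run 2, at 0.71 and 0.79, and had r of 0.31 and 0.28 in those of run 1, where *Ccl6* and *Ccl9* were at 0.36 and 0.49.

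*Ccl6* and *Ccl9*, the CCR1 ligands, were higher in PEP-619WW in the C1q gates of both runs. *Ccl6* measured 132 CPM (125 to 140) in PEP-WT and 316 CPM (304 to 328) in PEP-619WW in run 1, and 2352 and 3370 CPM in run 2. Its share of barcodes in run 1 was 48.3% against 65.4%, and 12.7% against 26.6% at 1000 UMIs, and no barcode had more than 112 of the 2578 PEP-619WW UMIs. *Ccl9* measured 27.9 CPM (24.6 to 31.6) and 70.5 CPM (64.9 to 76.5) in run 1, and 664 and 1421 CPM in run 2. Their log2 ratios in the C1q gate of run 1, 1.26 and 1.34, were 1.12 and 1.29 with equal weight for each barcode. In contrast to *Ccl24*, both genes had more positive barcodes in PEP-619WW in run 1, with 20.4% against 36.03% for *Ccl9*. In the neutrophil gate *Ccl6* was 1.45-fold (1.38 to 1.52) higher in PEP-619WW in run 1 and 1.43-fold (1.38 to 1.47) lower in run 2. Over barcodes in none of the other gates its log2 ratio was -0.15 in run 1 and -0.63 in run 2, so that the contrast between runs did not hold under that choice.

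*Cxcl2* had most of its run 1 UMIs in the neutrophil gate. It measured 574 CPM (554 to 594) in PEP-WT and 726 CPM (703 to 749) in PEP-619WW there in run 1, and 9157 and 8539 CPM in run 2. *Ccl6* was level with it or higher in that gate in run 1, at 575 and 832 CPM, and lower in run 2, at 3251 and 2278 CPM. The share of barcodes went the other way in run 1, with 43.5% (40.1 to 47.0) in PEP-WT and 37.6% (34.4 to 40.9) in PEP-619WW, and equal weight for each barcode gave a log2 ratio of -0.052 and barcodes in none of the other gates one of -0.89, in place of 0.34. The neutrophil gate held 86.9% and 90.2% of all *Cxcl2* UMIs of run 1. In the C1q gate the levels were 50.1 and 43.0 CPM in run 1 and 184 and 348 CPM in run 2. Both directions turned over barcodes in none of the other gates, with log2 ratios of 2.13 in run 1 and -0.93 in run 2, and equal weights also turned that of run 1, to 0.19.

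*Ccl24* and *Ccl8* divided the C1q gate in much the same way in the libraries of run 1 and differently in those of run 2. In run 1 no PEP-WT barcode and 2 PEP-619WW barcodes had both, against 92 and 71 with *Ccl24* only and 21 and 16 with *Ccl8* only. In run 2, 75.4% of PEP-WT barcodes had *Ccl8* only, 2.38% *Ccl24* only and 11.8% both, whereas in PEP-619WW 11.7% had *Ccl8* only, 24.6% *Ccl24* only and 8.33% both. At 1000 UMIs per barcode, *Ccl8* was found in 43.8% of *Ccl24*-positive and 63.8% of *Ccl24*-free PEP-WT barcodes of run 2, and in 14.0% and 12.2% of those of PEP-619WW. *Ccl6* was found more often in *Ccl24*-positive barcodes of both libraries, with 89.7% and 60.3% in PEP-WT and 89.1% and 76.9% in PEP-619WW.

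**Figure D5:**
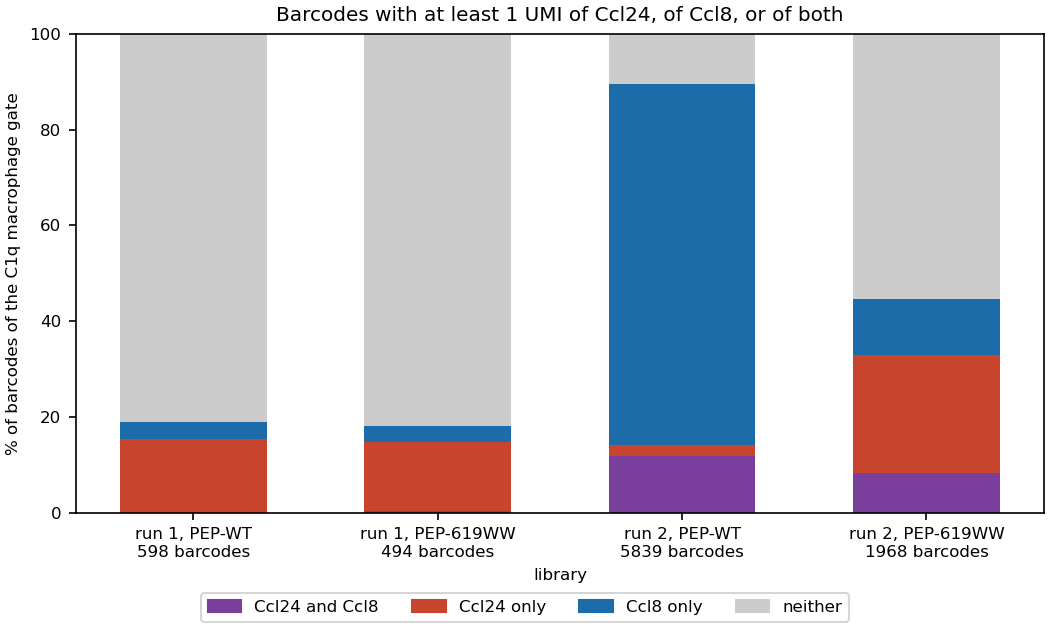
Percent of barcodes of the C1q gate (vertical axis) with a UMI of *Ccl24*, of *Ccl8*, of both or of neither, in each library (horizontal axis). In run 2 the barcodes with *Ccl8* only make up 75.4% in PEP-WT and 11.7% in PEP-619WW, and in run 1 barcodes with *Ccl24* only make up 15.4% and 14.4%.

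The genes whose counts followed *Ccl24* most closely over barcodes of the C1q gate were not the same in the 2 runs. By the mean of Pearson's r over the 2 libraries of a run, the 5 highest of 9493 genes in run 1 were *Epb41l3* (0.34), *Mrc1* (0.21), *Ubd* (0.20), *Serpina3g* (0.19) and *Txn1* (0.19). In run 2 the 5 highest of 8047 genes were *Fn1* (0.44), *Arg1* (0.34), *Srgn* (0.29), *Ltc4s* (0.29) and *Ccl6* (0.28). *Ltc4s* followed *Ccl24* in PEP-WT, with r of 0.53, and hardly in PEP-619WW, with 0.043, and *Ubd* in run 1 had 0.31 and 0.080. In run 1 these points were 598 and 494 barcodes with few *Ccl24* UMIs, and correlations of this size in sparse counts are weak.

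The *Ccl24*-positive barcodes had other companions in each run. In run 1, 5 of the 5 genes listed for red pulp macrophages, the iron-recycling cells of the spleen, had a higher level in them. Against *Ccl24*-free barcodes of the C1q gate the differences were 0.13 to 0.90 on the log2 scale in PEP-WT and 0.59 to 1.89 in PEP-619WW. The share of all genes that were higher in these barcodes is not given here. Whether the rise was particular to the red pulp genes was not tested, so the count does not name the cells. The iron exporter *Slc40a1* was at 224 against 125 CPM in PEP-WT and 322 against 130 CPM in PEP-619WW. *Cd5l*, a scavenger protein of tissue macrophages, was at 121 against 64.7 CPM and 112 against 30.2 CPM. In run 2 the *Ccl24*-positive barcodes were richer in *Fn1*, which encodes fibronectin, at 2016 against 249 CPM in PEP-WT and 2131 against 1036 CPM in PEP-619WW. *Arg1*, the arginase of alternatively activated macrophages, was at 2398 against 508 CPM and 1862 against 1056 CPM. *Fn1* and *Arg1* were named above for following *Ccl24* over these same barcodes, so their higher level restates that choice. *Retnla*, a gene of type 2 responses, was at 505 against 74.2 CPM and 1416 against 357 CPM. In both libraries of run 2, 2 of the 5 red pulp genes were higher in *Ccl24*-positive barcodes and 3 lower, again without the share of all genes. *Slc40a1* was at 16.5 against 33.2 CPM and 4.86 against 7.58 CPM. The *Ccl24*-positive barcodes were deeper, with median totals of 18053 against 9518 UMIs in PEP-WT of run 1 and 9505 against 7780 UMIs in PEP-WT of run 2, and a deeper barcode is more likely to show a UMI.

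The 15 genes of alternative activation and tissue macrophages were listed since *Ccl24* is known as one of their kind. Of those in the C1q gate of run 1, 1 of the 9 with enough UMIs was 2-fold higher in PEP-619WW (*Arg1*, 6.92 to 24.1 CPM) and 1 lower (*Pf4*, 77.2 to 15.5 CPM). There 1.96% of all genes were higher and 2.62% lower. In run 2, 3 of 15 were higher and 4 lower, against 10.5% and 8.88% of all genes. The median log2 ratio of the 15 was -0.35 where all genes had 0.11. *Retnla* was at 142 CPM in PEP-WT and 756 CPM in PEP-619WW, and *Mgl2*, a lectin, at 91.0 and 226 CPM. *Folr2*, a folate receptor of resident macrophages, fell from 158 to 70.6 CPM and *Lyve1*, a receptor for hyaluronan, from 36.2 to 5.74 CPM. The C1q gates of run 2 differed in other cell markers too, with the 5 monocyte genes summing to 761 CPM in PEP-WT and 3574 CPM in PEP-619WW, the 5 T cell genes to 8.79 and 206 CPM, and the 5 melanocyte genes to 130 and 22.4 CPM. Erythroid genes summed to 283 and 0.88 CPM. Their part in the run 2 ratios was not tested. In run 1 the monocyte genes summed to 5333 and 5704 CPM and the T cell genes to 613 and 610 CPM.

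Within the C1q gate of run 2, a split by *Ccr2*, a receptor of monocytes and young macrophages, left the directions of *Ccl24* and *Ccl8* in place. A *Ccr2* UMI was present in 1504 of 5839 barcodes for PEP-WT but in 1619 of 1968 for PEP-619WW, so the parts were unequal. Among barcodes with a *Ccr2* UMI, *Ccl24* was at 234 CPM in PEP-WT and 579 CPM in PEP-619WW, and *Ccl8* at 1887 and 436 CPM. Among barcodes without, *Ccl24* was at 86.9 and 851 CPM and *Ccl8* at 4852 and 2108 CPM. Within PEP-WT, barcodes with *Ccr2* thus had more *Ccl24* and less *Ccl8* than those without, the same directions as the genotype difference. Within PEP-619WW this held for *Ccl8* but not for *Ccl24*. The part of gate makeup in the ratios was not tested by this split. The PEP-619WW barcodes without *Ccr2* were 349, of which 5 held 50% of the *Ccl24* UMIs and 12 held 50% of those of *Ccl8*, so these levels rest on few barcodes. For *Ccl8* the same held with *Ccr2*, where 15 of 1619 barcodes held 50%, and in the split by *Folr2* below, where 13 of 454 and 17 of 1514 did. By *Folr2*, *Ccl8* was at 5281 CPM in PEP-WT and 1457 CPM in PEP-619WW where *Folr2* was found, and at 2339 and 351 CPM where it was not.

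Of the 28 other chemokines listed, 27 were found by symbol. In the C1q gate of run 1, 1.96% of all genes were 2-fold higher in PEP-619WW and 2.62% lower. Of these chemokines, 1 of 14 with enough UMIs was higher and 4 were lower. Among those with at least 50 UMIs, *Ppbp* and *Pf4*, chemokines of platelets, were at 9.89 and 77.2 CPM in PEP-WT and at 0.98 and 15.5 CPM in PEP-619WW. In the Lyz2 gate of run 1, *Ccl17*, a ligand of CCR4, was at 0.83 CPM in PEP-WT and 7.58 CPM in PEP-619WW. In the C1q gate of run 2, 9 of 19 were higher and 2 lower, against 10.5% and 8.88% of all genes. There *Ccl22*, also a ligand of CCR4, was at 4.03 CPM in PEP-WT and 34.4 CPM in PEP-619WW, and *Ccl17* at 11.4 and 69.7 CPM. *Xcl1*, a ligand of XCR1, had the highest ratio of those with at least 50 UMIs, from 0.51 to 6.43 CPM. Its direction in run 1 is not given here. In the same gate the 5 T cell genes summed to 8.79 and 206 CPM and the 3 natural killer cell genes to 0.26 and 8.51 CPM. The part of such cells in the *Xcl1* ratio was not tested. *Ppbp* was higher in PEP-619WW in that gate, at 24.5 and 58.6 CPM, opposite to run 1. *Cxcl14* was at 6.57 and 2.14 CPM and *Cxcl9*, an interferon-γ-induced ligand of CXCR3, at 189 and 74.4 CPM.

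In the C1q gate of run 1, 0 of 5 receptors of these chemokines with enough UMIs were 2-fold higher in PEP-619WW and 2 lower, where 1.96% and 2.62% of all genes were. Of these *Cxcr2* was at 15.6 CPM in PEP-WT and 5.75 CPM in PEP-619WW. In the Lyz2 gate 0 of 6 were higher and 2 lower, where 1.85% and 2.59% of all genes were. In the neutrophil gate 0 of 4 were past 2-fold in either direction. In the T cell gate 1 of 4 was higher, where 1.99% of all genes were. *Ccr3*, the receptor for *Ccl24*, was the other one lower in the C1q gate of run 1, with 25 UMIs (2.75 CPM) in PEP-WT and 7 UMIs (0.86 CPM) in PEP-619WW, a log2 ratio of -1.68 (-3.13 to -0.43). *Epx*, a granule gene of eosinophils, the cells that respond to eotaxins, had 0 or 1 UMI in every gate compared. *Siglecf*, also listed for eosinophils, had 0 and 3 UMIs in the C1q gate and 21 and 18 in the neutrophil gate of run 1. *Prg2*, which encodes another eosinophil granule protein, had 351 and 260 UMIs in the C1q gate of run 1 and 47 and 125 in its neutrophil gate, but at most 4 in any gate compared in run 2. *Ccr2*, the receptor for *Ccl2*, *Ccl7* and *Ccl12*, was at 45.4 CPM in the PEP-WT and 96.0 CPM in the PEP-619WW T cell gate of run 1, a log2 ratio of 1.08 (0.92 to 1.24). In run 2, 3 of 5 receptors were higher in the C1q gate, 4 of 6 in the Lyz2 gate and 3 of 5 in the neutrophil gate, and 0 lower. Of all genes, 10.5%, 14% and 11.6% were higher there. The C1q gate of run 2 had *Ccr2* at 108 and 876 CPM and *Cxcr2* at 1.53 and 11.1 CPM. *Ccr1*, the receptor for *Ccl6* and *Ccl9*, was at 122 and 271 CPM.

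Inflammatory and interferon-stimulated genes were listed as the other programs that drive chemokines in macrophages. In the C1q gate of run 1, 0 of 8 NF-κB genes were 2-fold higher in PEP-619WW and 1 lower (*Il1b*, 145 to 62.3 CPM). Of 10 interferon-stimulated genes 0 were higher and 1 lower (*Isg15*, 649 to 254 CPM). Of all genes in that gate, 1.96% were higher and 2.62% lower. In the other gates of run 1, 0 interferon-stimulated genes were higher. There 4 of 10 were lower in the Lyz2 gate, 7 of 10 in the neutrophil gate and 4 of 10 in the T cell gate. Their median log2 ratios were -0.85, -1.45 and -0.95. Of all genes, 1.85%, 1.85% and 1.99% were higher and 2.59%, 3.7% and 2.27% lower in these gates. In the C1q gate of run 2, 5 of 10 NF-κB genes were higher and 0 lower, and 7 of 10 interferon-stimulated genes were higher and 1 lower. Of all genes in that gate, 10.5% were higher and 8.88% lower. *Il1b* was there at 34.6 CPM in PEP-WT and 240 CPM in PEP-619WW, and *Isg15* at 107 and 265 CPM. The median log2 ratio of the interferon-stimulated genes in the C1q gate was -0.53 in run 1 and 1.29 in run 2.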

How the data were processed

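CD45+ cells, from spleen per the design text, were captured in 4 libraries, run 1 and run 2 of each genotype. The deposited files hold UMI counts per gene and barcode that the authors made from 10x reads, unnormalised, and the submitters' processing notes name Cell Ranger 6.0.0 and mm10 (GRCm38). Of 32285 genes, 127 had no symbol in the reference table used here.

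Counts were summed per gate with Python 3.11.15, numpy 2.4.6 and scipy 1.17.1, and divided by all UMIs of the gate to give CPM. The scripts were tested on simulated data. Levels have exact Poisson, shares exact Clopper-Pearson and ratios conditional exact 95% intervals. Ratios were taken in gates of at least 50 barcodes and compared with a 2-fold limit for genes with at least 20 UMIs over both libraries. With 1 library per genotype and run no p-value was computed. No doublets were removed here, and barcodes that carry genes of several cell types were counted in each gate they met.

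All 8 members are named. From the lists of other chemokines and receptors, genes past 2-fold with at least 50 UMIs in the C1q gate were named, largest first, up to 5 per direction in each list (1 of them is not reported here), and so were the 5 genes most correlated with *Ccl24*, on ln(1 + counts per 10000) with a UMI in at least 5% of barcodes. Other genes were chosen after their values were seen. Members and lists were chosen with earlier results of these data known. Alternatives were stricter or looser gates, single-gate barcodes, barcodes without other-class UMIs, at least 1000 UMIs, equal weights, leaving out the richest barcode, median centring and a minimum of 100 UMIs. Leaving out 3 barcodes or those over 20000 UMIs was chosen after seeing the data.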

Additional observations from a re-analysis of the deposited data

Results flagged for a closer look

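Some genes moved in opposite directions between genotypes in the 2 runs, with counting intervals on opposite sides of 0. The difference between runs was not tested, since each run had 1 library per genotype. *Ccl8* had a log2 ratio of -3.75 in run 2 and 1.13 in run 1 in the Lyz2 gate, and of -2.65 and 0.75 in the C1q gate, where the run 1 value rested on 43 and 65 UMIs and 3 PEP-619WW barcodes held 50% of theirs. *Ccl7* had 0.32 in run 2 and -2.30 in run 1 in the C1q gate, where 1 PEP-WT barcode of run 1 held 22 of 44 UMIs. *Ccl6* in the neutrophil gate had -0.51 in run 2 and 0.53 in run 1. *Cxcl2* had 0.92 in run 2 and -0.22 in run 1 in the C1q gate, and -0.10 and 0.34 in the neutrophil gate. Several of these directions turned over barcodes that were in no other gate: *Ccl8* in the C1q gate of run 1 was then at -1.03, *Ccl6* in the neutrophil gate of run 1 at -0.15, *Cxcl2* in the C1q gate at 2.13 in run 1 and -0.93 in run 2, and *Cxcl2* in the neutrophil gate of run 1 at -0.89, so the opposite directions of these genes in these gates did not hold under that choice, except that those of *Cxcl2* in the C1q gate were exchanged.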

How the results depend on the processing

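Among the alternative values of the *Ccl24* ratio, 30 stayed within the counting interval or spread of the reported value, 28 moved and 11 changed sign. For the other 7 genes 199 stayed, 151 moved and 13 changed sign. Requiring at least 1000 UMIs moved none of the ratios. The cause of each move was not tested. For *Ccl24* in run 1 (reported log2 ratios 1.66, 1.22 and 1.66 in the Lyz2, C1q and neutrophil gates), barcodes in no other gate gave -0.11, -0.082 and 1.04, barcodes without other-class UMIs 0.77, 0.41 and -1.89, and equal weights 0.73, -0.091 and 0.35. Leaving out the richest barcode gave 1.42, 0.97 and 0.51, leaving out 3 gave 0.93, 0.49 and -0.030, and leaving out barcodes over 20000 UMIs gave -0.56, -0.48 and -1.65. Stricter gates gave 1.497 in the C1q gate and -2.42 in the T cell gate (reported -0.43). In run 2 (1.92, 2.27 and 0.15), barcodes in no other gate gave 0.80, 5.69 and 1.90, equal weights 1.501, 2.10 and -0.13, centring 1.80, 2.17 and -0.062, and barcodes up to 20000 UMIs 1.65, 2.05 and -0.20. The 5.69 came from the small part of the C1q gate that lay outside the Lyz2 gate. In the Lyz2 and C1q gates stricter gates gave 1.86 and 2.39 and barcodes without other-class UMIs 2.00 and 2.35. Leaving out 3 barcodes gave 1.96 in the Lyz2 gate and 1.04 in the neutrophil gate, where leaving out 1 gave 0.96. Over barcodes in no other gate the sign also changed for *Cxcl2* in the Lyz2, C1q and neutrophil gates of run 1 (-0.40, 2.13 and -0.89), *Ccl8* in the C1q gate (-1.03) and *Ccl6* in the neutrophil gate of run 1 (-0.15), *Ccl6*, *Ccl9* and *Cxcl2* in the Lyz2 gate of run 2 (-0.70, -0.31 and -0.46), and *Ccl2* and *Cxcl2* in its C1q gate (0.51 and -0.93). Equal weights changed it for *Cxcl2* in the C1q and neutrophil gates of run 1 (0.19 and -0.052), and leaving out other-class UMIs for *Ccl2* in the Lyz2 gate of run 1 (0.071). With a minimum of 100 UMIs the share of genes 2-fold higher and lower in run 1 was 0.786% and 0.806% in the Lyz2 gate, 0.587% and 0.666% in the C1q gate, 0.586% and 1.498% in the neutrophil gate, and 0.527% and 0.560% in the T cell gate, and 3.85% were lower in the neutrophil gate of run 2. No paired analysis was possible because each genotype had 1 library per run and no test was made. No alternative can separate genotype from library, and the 10 PEP-WT T cell barcodes of run 2, fewer than the minimum of 50, allowed no comparison there.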
